A study of Drosophila melanogaster with 6 samples.

Results

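Dopamine, serotonin, octopamine and tyramine are monoamine transmitters of the fly brain. Each is made from an amino acid by a ring hydroxylase, a decarboxylase or both, with a further hydroxylase for octopamine. All are loaded into vesicles by a common transporter, and dopamine and serotonin are each cleared from the synapse by a transporter of their own. Few neurons of the head make them, but they reach most of the brain and act on arousal, courtship, aggression and memory. Dopamine is also a precursor of the pigments and cross-links of the cuticle, so some of these enzymes are active outside neurons.

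The genes described here are ple, Ddc, Trh, Tdc2, Tbh, Vmat, DAT and SerT, chosen by name for their role. All probe sets that the array annotation assigns to them alone were taken. These are 10 probe sets of 7 genes, among 11982 named genes and 18952 probe sets on the array. Vmat has 4 of them and the other genes 1 each, so the Vmat values are not independent of each other. No probe set is listed for Trh, the neuronal tryptophan hydroxylase of serotonin synthesis (Trhn in the current gene table), and it was not analysed here. Its old symbol is also a synonym of trh and Hn, so it was matched by locus tag and not by name.

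RNA was from the heads of male Drosophila melanogaster 2 to 5 days after eclosion, grown at 25 °C, on 6 Affymetrix expression arrays. The deletion group, 3 arrays, was from males of the strain cm Sxlfp7BO ct, in which the whole Sex-lethal (Sxl) gene is deleted and the flanking markers carmine and cut are mutant. The control group, 3 arrays, was from wild-type brothers of the Oregon-R background, to which the deletion had been backcrossed. Loss of Sxl therefore cannot be told apart from the effects of cm, ct and other alleles linked to them. The same holds for the loss of signal of genes beside Sxl, given below. Sxl directs female development, and the study asked how male head expression differs without it.

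The 6 arrays correlated with each other at 0.994 to 0.998 on the log2 scale, and their median intensities were 14.3 to 14.8. The 3 Sxl probe sets lay between 88.8 and 206 in wild type and between 3.99 and 6.26 in the deletion males, which matched the labels. Of the markers, cm fell (log2 fold change -1.25, limma adjusted p = 0.00178). The marker ct had 0.23, 0.03 and -0.16 on its 3 probe sets with no call. On the side of ct, the tested genes nearest Sxl also fell. These were CG4615 (-4.63, limma adjusted p = 1.38e-05), CG4617 (-1.76, limma adjusted p = 0.00168) and CG8300 (-2.83, limma adjusted p = 5.67e-05). The nearest on the side of cm, CG4607, had -0.1 with no call. Whether the deletion reaches these genes was not tested. The Sxl range in the deletion males shows what a probe set without a target gave on these arrays. Head tissue was checked with fixed markers: the neuronal gene elav had 344 to 438 and the photoreceptor gene trp 2661 to 5003 across the arrays. The number of arrays limits the precision.

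None of the listed monoamine genes passed the threshold between the genotypes in the fit with genotype alone. With the replicate number as a block, 1 Vmat probe set did. All 10 probe sets passed the filter on dim signals, and without the block 0 of 10 had an adjusted p under 0.05 with limma, where 2.6% of all 11261 tested probe sets did. Before adjustment 2 of the 10 had p under 0.05, against 17.6% of all. The log2 fold changes, deletion over wild type on the log2(intensity + 1) scale, ran from -0.29 to 0.12, with standard errors of 0.07 to 0.19. Of the 10, 7 were below 0 and 3 above, and 48.7% of all tested probe sets were below 0. Their median was -0.08, and that of all tested probe sets was 0.00. The 95% intervals, taken for each probe set singly, reached no lower than 0.672-fold and no higher than 1.47-fold. On simulated arrays the same fit called 34% of probe sets changed by 1.25-fold, 78% at 1.5-fold and 96% at 2-fold, so small changes could be missed. These shares are for probe sets drawn from all tested ones, with a median SD of log2 values within a genotype of 0.101. That of the monoamine probe sets was 0.145, so changes of these sizes in them may be missed more often.

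**Figure D1:**
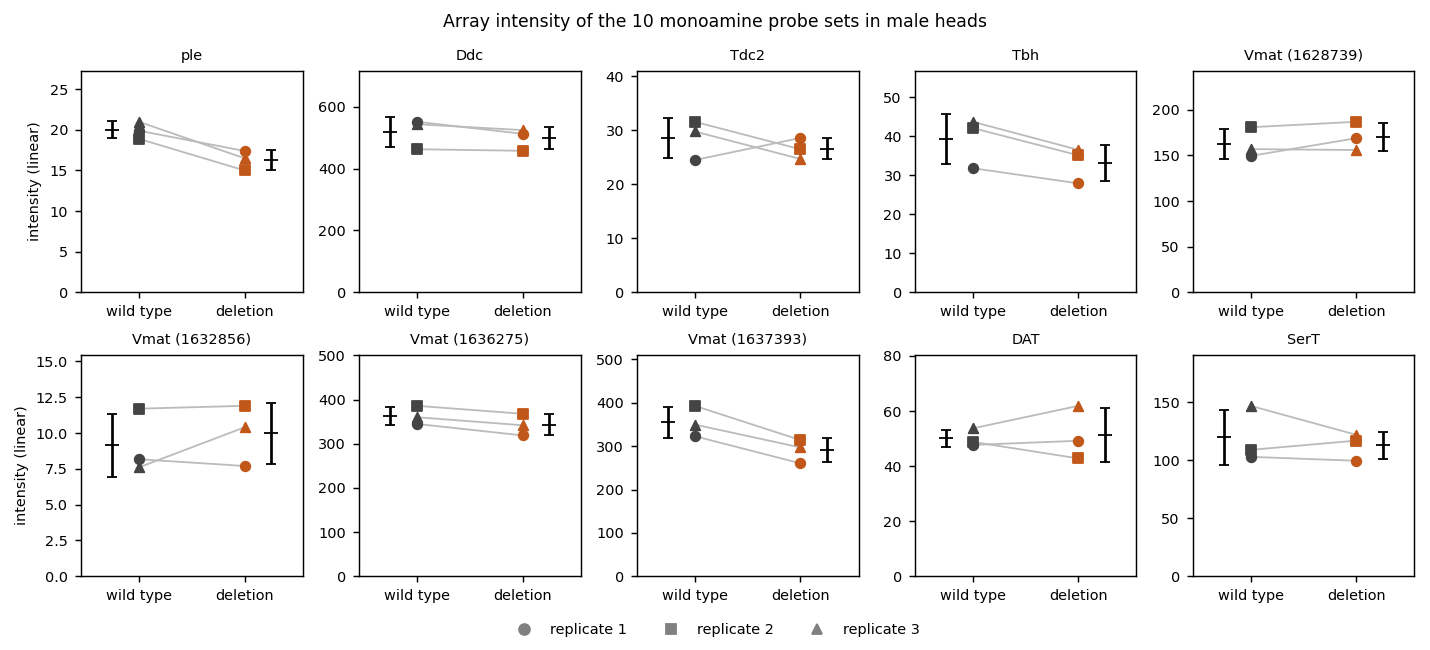
Linear array intensity (y axis, from 0) of each of the 10 probe sets in wild-type and deletion heads. Points are arrays, shapes and grey lines mark equal replicate numbers, and bars beside them are the mean ± SD (n = 3). The groups are apart for ple and Vmat probe set 1637393 and overlap in the other 8 panels.

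Among the synthesis genes, ple came nearest to a difference. It encodes tyrosine hydroxylase, the first and rate-limiting enzyme of dopamine synthesis. Its intensities were 19.9, 18.9 and 21.0 in wild type and 17.4, 15.0 and 16.5 in the deletion males. The groups did not overlap, and the deletion array was the lower in each of the 3 pairs of equal replicate number. The mean was 20.0 ± 1.04 (SD, n = 3) in wild type and 16.3 ± 1.19 in the deletion, a log2 fold change of -0.28 ± 0.09 (SE, 95% interval -0.48 to -0.07). The limma p was 0.0148 before adjustment and 0.161 after it, which is not past the threshold. Groups lay apart for 2 of the 10 monoamine probe sets and for 24.0% of all tested probe sets. The ple signal was dim, not far above the 6.26 reached by the deleted Sxl probes, and its fold may be understated.

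Ddc encodes the decarboxylase that makes dopamine from DOPA and serotonin from 5-hydroxytryptophan, and it also serves the cuticle. Its intensities were 552, 463 and 544 in wild type and 513, 458 and 525 in the deletion males. The groups overlapped almost wholly. The means were 519.7 ± 49.1 and 499 ± 35.8 (SD, n = 3), with a log2 fold change of -0.06 ± 0.08 (SE, 95% interval -0.25 to 0.13, limma adjusted p = 0.794). As a fold this interval runs from 0.841 to 1.10.

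Tdc2 and Tbh act in sequence in the octopamine neurons. Tdc2, the neuronal tyrosine decarboxylase, makes tyramine. It had 24.5, 31.6 and 29.8 in wild type and 28.6, 26.5 and 24.7 in the deletion males. The lowest and the highest arrays were both wild type, so the groups overlapped, and the log2 fold change was -0.10 ± 0.11 (SE, limma adjusted p = 0.735). Tbh, tyramine beta-hydroxylase, turns tyramine into octopamine. It had 31.8, 42.1 and 43.7 in wild type and 27.9, 35.1 and 36.5 in the deletion males. The groups overlapped through the wild-type array numbered 1, which lay below 2 of the deletion arrays, but the deletion array was lower in each pair of equal number, by 0.18, 0.26 and 0.25 in log2. The log2 fold change was -0.23 ± 0.15 (SE, 95% interval -0.57 to 0.11), with a limma adjusted p of 0.483, and 0.14 with the replicate number as a block.

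**Figure D2:**
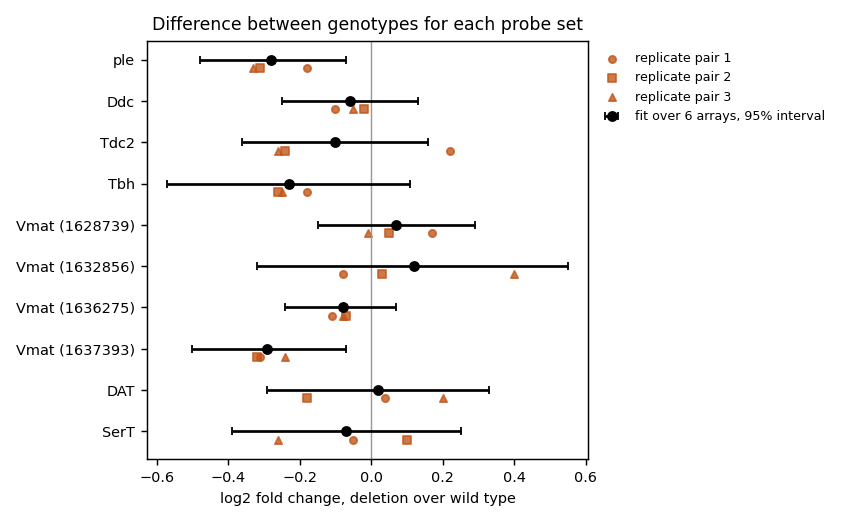
Log2 fold change, deletion over wild type (x axis), for each of the 10 probe sets. Black points and bars are the fit over 6 arrays with its 95% interval, and orange symbols are the differences within the 3 replicate pairs. The interval excludes 0 only for ple (-0.48 to -0.07) and Vmat probe set 1637393 (-0.50 to -0.07), neither past the threshold after adjustment.

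Vmat encodes the vesicular monoamine transporter, which loads all of these amines into vesicles. In the fly it has a neuronal and a glial splice form, and the annotation used here does not say which form each probe set reads. Its 4 probe sets did not give the same value. Probe set 1637393 had 323, 393 and 349.8 in wild type and 260.4, 314 and 297 in the deletion males. These groups did not overlap, and the log2 fold change was -0.29 ± 0.09 (SE, 95% interval -0.50 to -0.07, limma adjusted p = 0.161).

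With the replicate number as a block this Vmat probe set fell past the threshold (limma adjusted p = 0.0151), the 1 monoamine call of that fit, in which 7.4% of all tested probe sets were called. Its differences within pairs were -0.31, -0.32 and -0.24. The call was lost when the block was combined with a variance model without the intensity trend, an alternative added after the data were seen (adjusted p = 0.08), where 1.4% of all were called.

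The brightest Vmat probe set, 1636275, had 345, 386 and 360.2 in wild type and 319, 368 and 342 in the deletion males, with overlapping groups and a log2 fold change of -0.08 ± 0.07 (SE, limma adjusted p = 0.589). Probe set 1628739 had 149.5, 181 and 157 in wild type and 169, 187 and 156 in the deletion males. It leaned the other way, with a log2 fold change of 0.07 ± 0.09 (SE, limma adjusted p = 0.783). Probe set 1632856 was dim, at 7.60 to 11.7 in wild type and 7.70 to 11.9 in the deletion males, close to the level of the deleted Sxl probes. As a mean of its 4 probe sets, the gene had a log2 fold change of -0.05 ± 0.10 (SE, limma adjusted p = 0.863).

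The unequal change of the Vmat probe sets was then taken as a ratio within each array, a measure chosen after these values were seen. The log2 ratio of 1636275 to 1637393 was 0.09, -0.03 and 0.04 in wild type and 0.29, 0.23 and 0.20 in the deletion males. The ratio of 1628739 to 1637393 was -1.11, -1.11 and -1.15 in wild type and -0.62, -0.75 and -0.93 in the deletion males. In both, all deletion arrays lay above all wild-type arrays, by 0.20 and 0.36 in the mean. The ratio of the dim 1632856 to 1637393 differed by 0.41 and its groups were also apart. These 3 ratios share 1637393 and were picked for its difference, so they are a description with no test. The 3 ratios among the other Vmat probe sets differed by -0.05 to 0.20. Splicing was not measured directly. The ratio of 3' to 5' control signal, a sign of RNA integrity, was 3.55, 3.73 and 4.08 in wild type and 3.47, 3.45 and 3.30 in the deletion males for eIF-4a, with the groups apart. For GAPDH it was 3.67 ± 0.106 and 3.81 ± 0.107, and for actin 3.38 ± 0.341 and 3.11 ± 0.288 (SD, n = 3), with overlapping groups. The part of RNA integrity in the unequal Vmat values was not tested.

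**Figure D3:**
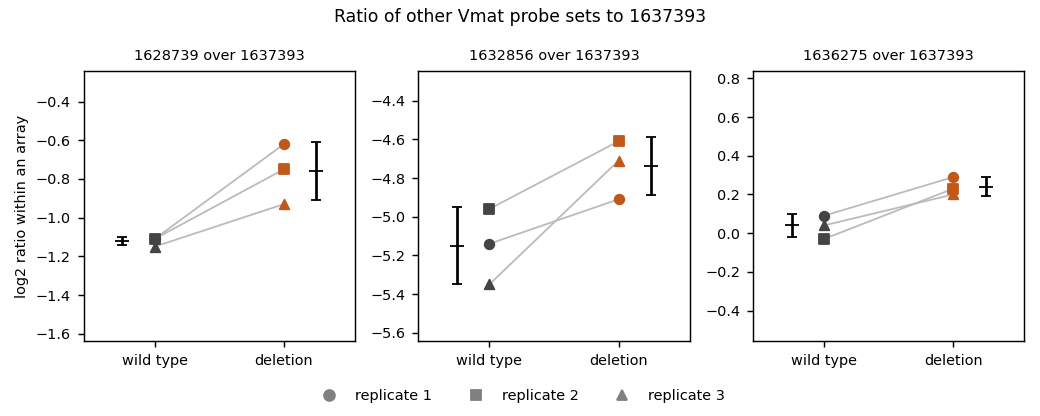
Log2 ratio of the other 3 Vmat probe sets to probe set 1637393 within each array (y axis, each panel spanning the same range), for wild-type and deletion heads. Points are arrays, shapes and lines mark equal replicate numbers, and bars are the mean ± SD (n = 3). In all 3 panels the deletion arrays lie above the wild-type arrays, by 0.36, 0.41 and 0.20 in the mean.

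The plasma membrane transporters showed no difference beyond their spread. DAT, which takes dopamine back up, had 47.7, 48.8 and 53.7 in wild type and 49.2, 42.8 and 61.9 in the deletion males. The deletion arrays spread on both sides of the wild type (SD 9.73 against 3.16), and the log2 fold change was 0.02 ± 0.13 (SE, 95% interval -0.29 to 0.33, limma adjusted p = 0.962). SerT, which takes up serotonin, had 103, 109 and 147 in wild type and 99.6, 117 and 122 in the deletion males. These groups overlapped, with a log2 fold change of -0.07 ± 0.14 (SE, 95% interval -0.39 to 0.25, limma adjusted p = 0.853).

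Most of the monoamine probe sets varied more between replicates than the median probe set. As 4 of the 10 are of Vmat, the counts here are not counts of independent genes. The SD of the log2 values within a genotype ran from 0.087 for ple to 0.294 for the dim Vmat probe set. It was above the median of all tested probe sets, 0.101, in 8 of 10. On the brightest probe set of each gene, ple (0.087) and Vmat (0.092) lay below that median and the other genes above it. The wild-type array numbered 1 was the lowest of its genotype for 7 of 10, where this held for 43.7% of all tested probe sets. The deletion array numbered 1 was the lowest of its genotype for 5 of 10, against 38.8% of all. The deletion array was the lower in all 3 pairs for 5 of 10, namely ple, Ddc, Tbh and Vmat probe sets 1636275 and 1637393, against 22.0% of all. It was the higher in all 3 for none, and the share of all for that direction was not computed.

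Patterns over the 6 arrays were compared by the root mean square difference of standardised log2 profiles, where 0 is the same pattern. Among the members, Tbh and Vmat were the most alike (0.62), followed by Tbh and SerT (0.70) and by ple and Ddc (0.89), while Ddc and Vmat were the least alike (1.77). The gene outside the list most like ple was List (0.05), and the one most like Tbh was Cdk4 (0.07). For the others these were CG12054 for Ddc (0.15), CG12659 for Tdc2 (0.23), CG14298 for Vmat (0.18), Pglym78 for DAT (0.22) and fkh for SerT (0.12). With 6 arrays such likeness is common: from 57 probe sets for DAT to 365 for Tbh lay within 0.5.

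Tbh is the 1 member on the X chromosome with Sxl. It lies 104 genes from Sxl, beyond ct, which is 51 genes away on the same side. The gene before it, sn, which encodes the actin-bundling protein fascin, rose from 516 ± 41.9 to 664 ± 11.1 (SD, n = 3; log2 fold change 0.37 ± 0.06 SE, limma adjusted p = 0.0285). The other nearest tested genes did not pass the threshold. These were orion (0.10) and sws (0.05) on the side of ct and CG2233 (-0.06), mys (0.21 and 0.14 on its 2 probe sets) and Upf2 (0.30) on the far side. Within 30 genes of Tbh on each side, a window of arbitrary size, 7 of 38 tested probe sets were called, all 7 higher in the deletion males, against 2.6% of all tested probe sets called in either direction. The median log2 fold change of the 38 was 0.06, and 13 of them, like Tbh, were below 0.

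**Figure D4:**
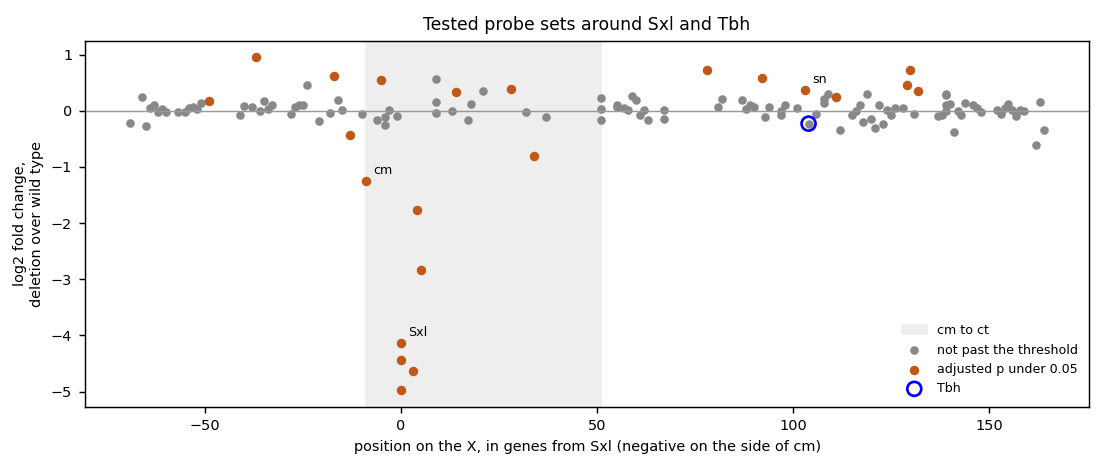
Log2 fold change, deletion over wild type (y axis), of tested probe sets by position on the X in genes from Sxl (x axis), with the cm to ct stretch shaded. Orange points passed an adjusted p of 0.05, and the blue ring is Tbh at 104 genes from Sxl and -0.23, beside sn at 0.37.

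Genes around the monoamine pathway were taken from lists chosen by function. Of 47 genes in 5 lists, 41 were tested by their brightest probe set, and 0 were called with limma, where 2.71% of all tested genes were. At an unadjusted p under 0.05 there were 11 of the 41, where 17.6% of all tested probe sets were, and 2 were called with the replicate block, against 7.74% of all tested genes.

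Tyrosine and tryptophan hydroxylases need the cofactor tetrahydrobiopterin. Of its 5 genes, Sptr, the X-linked sepiapterin reductase gene of the last step, had the smallest p. This gene lies 164 genes from Sxl, on the side of ct and beyond Tbh. It had 158, 156 and 142 in wild type and 122, 114 and 125 in the deletion males. The groups were well apart, and the log2 fold change was -0.34 ± 0.07 (SE), with a limma adjusted p of 0.0503, just short of the threshold, and 0.0339 with the replicate block, where it fell. Pu, GTP cyclohydrolase, the entry enzyme for this cofactor and for the pteridine pigments of the eye, leaned the other way. It had 601, 704 and 664 in wild type and 823, 765 and 740.4 in the deletion males, and these groups too did not overlap. Its log2 fold change was 0.24 ± 0.07 (SE, limma adjusted p = 0.119), and the median of the 5 genes was -0.04.

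Other enzymes that make, trap or inactivate amines gave small differences. Of 6 genes 4 were tested, with a median of 0.08. Tdc1, the tyrosine decarboxylase of non-neuronal tissues, had -0.20 ± 0.08 (log2 fold change ± SE, limma adjusted p = 0.265). The arylalkylamine acetyltransferase gene speck, which inactivates dopamine and serotonin, had 0.15 ± 0.06 (limma adjusted p = 0.241). The genes e and t, which conjugate dopamine to beta-alanine and release it again, had 0.04 and 0.13.

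Of 17 amine receptor genes 15 were tested, with log2 fold changes from -0.26 to 0.24 and a median of -0.06. The dopamine and ecdysteroid receptor DopEcR had 0.24 ± 0.09 (SE, limma adjusted p = 0.228), and the X-linked dopamine receptor Dop2R had -0.13 ± 0.07 (SE, limma adjusted p = 0.372). Of 8 transcription factor genes known for a part in amine neurons or in Ddc expression 6 were tested, with a median of -0.14. The lowest was tup, the Islet factor of dopamine and serotonin neurons in the embryo, at -0.39 ± 0.13 (SE, limma adjusted p = 0.182). The next smallest p was that of zfh2, a factor that binds Ddc regulatory DNA, at -0.25 ± 0.09 (SE, limma adjusted p = 0.186).

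Genes of other transmitters gave a median of 0.00 over 11 tested. Hdc, not among the listed monoamine genes, makes histamine, which is also a monoamine and the transmitter of photoreceptors. It had 352, 481 and 543 in wild type and 718, 672 and 666 in the deletion males. All deletion arrays were above all wild-type arrays, with a log2 fold change of 0.60 ± 0.14 (SE, limma adjusted p = 0.0719). With the replicate block it rose past the threshold (adjusted p = 0.0331). Gad1, which makes the transmitter GABA, had -0.14 ± 0.04 (SE, limma adjusted p = 0.13).

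Cell markers moved between the genotypes in part, and in whole heads fewer cells of a type and less RNA per cell cannot be told apart. Calls below are by the brightest probe set, with 2.71% of all tested genes called by limma and 7.74% with the replicate block. All 3 measured photoreceptor markers of 6 had positive log2 fold changes. Of these, inaD rose past the threshold, and all 3 did with the block. Their summed intensity was 6050 to 8278 in wild type and 10145 to 10559 in the deletion males. All 5 measured fat body markers of 6 had negative log2 fold changes. Of these, fit fell past the threshold, and 4 fell with the block, with sums of 17183 to 18583 in wild type and 13798 to 15182 in the deletion males.

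Of the glial markers 5 of 6 were measured, 4 of them below 0, with a median log2 fold change of -0.16. None passed with limma, where 2 had an unadjusted p under 0.05, against 17.6% of all tested probe sets. With the block alrm, an astrocyte gene, fell (-0.31, adjusted p = 0.0124), as did nrv2 (-0.24, adjusted p = 0.0377). The groups were apart for these 2 of the 5, against 24.0% of all tested probe sets. The glial sums, 7446 to 8085 and 7316 to 7526, overlapped, but the bright Gs2 (5333 to 5767 over all arrays) made up most of them. Of the neuronal markers 6 of 8 were measured, with a median of -0.02 and overlapping sums of 4589 to 5029 and 4479 to 4661. Of the 6, 3 were below 0 and 3 above. None passed with limma, where 2 had an unadjusted p under 0.05, again against 17.6% of all tested probe sets. Of these 2, fne fell (-0.15, limma adjusted p = 0.185) with the groups apart. The other, nSyb, a synaptic vesicle gene, rose (0.30) with overlapping groups and passed only with the block (limma adjusted p = 0.0433). Muscle markers (4 of 6 measured, 1752 to 2100 and 1949 to 2219) overlapped with no call in either fit. Of the 5 measured cuticle markers only Vajk1 passed the filter. It had 0.63 (limma adjusted p = 0.0524) with the groups apart, and rose with the block (adjusted p = 0.0372). The sums of the cuticle markers, 38 to 42 in wild type and 48 to 53 in the deletion males, were also apart. Vajk1, at 13.3 to 17.7 and 22.0 to 26.9, made up most of this difference, so the sums add little to it. Of the markers below the filter, Cpr49Ah (log2 fold change 0.01) and resilin (-0.02) had overlapping groups. The groups were apart for y (0.2) and dsx-c73A (0.22), and dsx-c73A was within the level of the deleted Sxl probes on every array. The part of these shifts in the monoamine values, those of Vmat and Ddc included, was not tested.

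**Figure D5:**
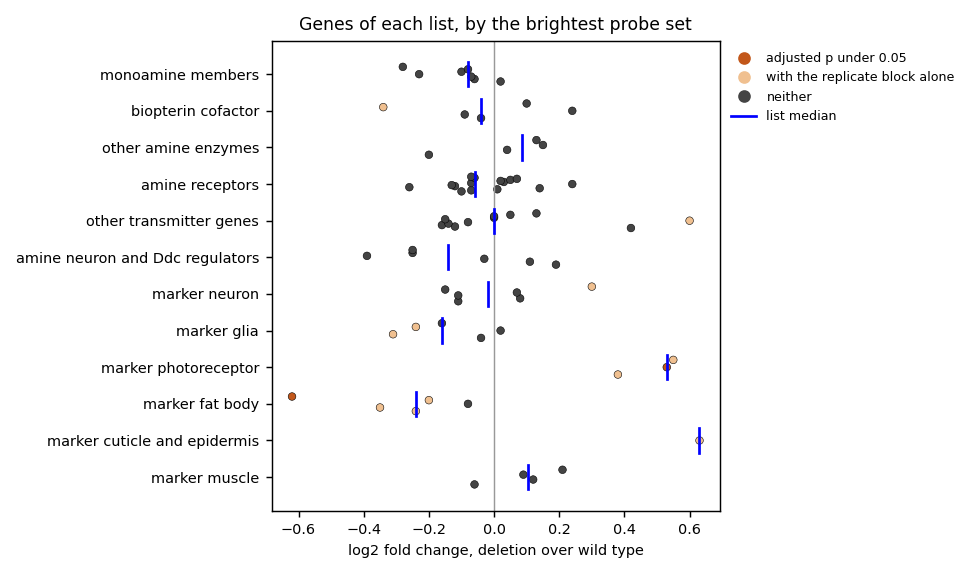
Log2 fold change, deletion over wild type (x axis), of each tested gene by its brightest probe set, for the monoamine members, 5 related lists and 6 marker lists. Orange points passed with limma, pale points passed with the replicate block alone, and blue lines are list medians. The monoamine median is -0.08, that of photoreceptor markers 0.53 and that of fat body markers -0.24.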

How the data were processed

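Per the labels, biotin-labelled RNA was hybridised to Affymetrix arrays. The values the authors deposited are linear intensities, a single one for each probe set on an array. The steps of summarisation, background correction and normalization were not given in the sources used here. Array medians were nearly equal, so no normalization was added, and log2(intensity + 1) was analysed. From 18952 probe sets 183 controls were dropped. The 11261 at or above the 40th percentile of the mean over all arrays (an intensity of 8.35) were tested in R 4.3.3 with limma 3.58.1 (genotype as the sole term, intensity trend, two-sided, Benjamini-Hochberg over all tested, threshold 0.05). Gene names are the array annotation's, updated by Entrez identifier to RefSeq Release 6.

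As a check of pairing, residuals about each genotype's mean were correlated across arrays. Equal replicate numbers gave 0.216, 0.248 and 0.114, each over the bound of 0.1, which was set to count as pairing here. Unequal numbers gave -0.223 to 0.057. Residuals about a genotype's mean cancel out, so these correlations depend on each other and do not establish pairing. The labels do not explain the numbers. The fit without the block remained the main one, since no source states the pairing, and the blocked value is given where it changes a call.

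Named were all members, their most alike gene, called list genes or else the 2 of smallest p, Sxl, cm, ct and the 3 nearest tested genes on each side of Tbh. Any further gene was picked with its values known. Members and lists were chosen with earlier results of these data known. Alternatives changed the probe set choice, threshold, filter, pseudocount, normalization, variance model, weights or replicate block, or left out arrays. On simulated arrays with 200 changed probe sets, 10 of 163 calls were false.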

Additional observations from a re-analysis of the deposited data

How the results depend on the processing

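The count of monoamine probe sets called stayed at 0 under every alternative except the replicate block, which gave 1 (Vmat probe set 1637393). With single arrays left out it was 0 to 0. No monoamine probe set was called under the other alternatives, and the limma adjusted p of ple ranged from 0.0995 to 0.399. Direction was kept throughout for 6 probe sets, but without single arrays the log2 fold changes ranged from -0.32 to -0.22 for ple, -0.36 to -0.21 for Vmat probe set 1637393, -0.37 to -0.11 for Tbh, -0.20 to -0.02 for Tdc2, -0.14 to -0.04 for Vmat probe set 1636275 and 0.0016 to 0.15 for 1628739. The last 4 thus moved by over 1.5 times. With single arrays left out it turned for 4 others, none near the threshold: Ddc (-0.14 to 0.0024, positive without deletion replicate 2), the dim Vmat probe set 1632856 (-0.01 to 0.29, negative without deletion replicate 2), DAT (-0.12 to 0.14, negative without wild-type replicate 1 or deletion replicate 3) and SerT (-0.17 to 0.08, positive without wild-type replicate 3 or deletion replicate 1). The count of related genes called, 0, was 1 with the filter at the 60th percentile and 1 with robust variances (Sptr in both), 3 with array weights (Sptr, Hdc and Gad1), 2 with the replicate block and 2 at a threshold of 0.1 (Sptr and Hdc in both), 1 without both arrays numbered 1 (Hdc), an alternative added after the data were seen, and 0 to 3 with single arrays left out, where the 3 (Hdc, Gad1 and 5-HT7) came without wild-type replicate 1. The count over all probe sets, 293, was 128 without the intensity trend, 572 with array weights, 833 with the replicate block, 683 at a threshold of 0.1, 451 without both arrays numbered 1 and, without a single array, from 54 (deletion replicate 2) to 432 (wild-type replicate 1). The cause of these changes was not tested. The dim signals of ple and of Vmat probe set 1632856 limit what their folds can show. With a pseudocount of 16 in place of 1, the log2 fold change of ple was -0.15, against -0.28 in the main fit. That of 1632856 was 0.05, against 0.12.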
